A study of Mus musculus with 3 samples.

Results

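The dermomyotome is the dorsal epithelial layer of the somite, the block of mesoderm beside the neural tube that is repeated along the trunk. Cells with its transcription factors Pax3 and Pax7 were looked for among droplet transcriptomes of E10.5 mouse embryos, from the AGM (aorta, gonad and mesonephros) region of the trunk. A barcode was taken as a Pax3/Pax7 cell when it carried suffix 1 to 4, at least 1000 unique molecular identifiers (UMIs, each 1 captured transcript), at least 500 genes and at most 10% mitochondrial UMIs, with at least 2 summed UMIs of Pax3 and Pax7. It also had to hold 0 UMIs of Sox2 (neural progenitors), Sox10 (neural crest) and Cdh5 (endothelium), at most 1 summed UMI of Pax1 and Pax9 (sclerotome) and at most 1 of Myog, Myod1, Myf5 and Myf6 (committed muscle). The rule took 465 of the 6787 barcodes kept in the libraries with suffix 1 to 4, out of 9492 barcodes deposited. The share was 6.85% (95% exact binomial interval 6.26 to 7.48%). Members numbered 127, 109, 98 and 131 in libraries 1 to 4, which is 6.94, 6.62, 6.17 and 7.61% of the kept barcodes of each. Every library therefore held the cells at a similar share.

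Dermomyotome cells give rise to the skeletal muscle of the trunk, to the dermis of the back and, at limb levels, to muscle precursors that leave the epithelium and migrate. The edges of the sheet turn inward as lips and feed the myotome, the layer of differentiating muscle beneath it, while the ventral part of the somite forms the sclerotome, the source of vertebrae and ribs. Pax3 and Pax7 keep these progenitors proliferating and are also used in the dorsal neural tube, so the pair of genes alone does not set somite cells apart.

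Embryos of 28 to 32 somite pairs had been pooled, and 3 populations were sorted from their dissected AGM regions. These were live Ter119-negative cells, called the niche, and 2 gates of Ter119-negative cells with CD31, VE-cadherin and cKit on the surface, 1 without CD41 (endothelial) and 1 with low CD41 (T1-preHSCs, precursors of haematopoietic stem cells). The sources used here give no mouse strain, and no genotype or treatment differs between the populations. The counts came as 1 matrix with 8 barcode suffixes, here called libraries, and no label ties a library to a population. The matrix was therefore 1 sample, no test was possible, and all intervals below cover counting error only.

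Pax3/Pax7 cells had a median of 9006 UMIs and 2730 genes, against 7300.5 UMIs and 2456 genes in the 6322 other kept cells of libraries 1 to 4, which are called the rest. Mitochondrial UMIs made up a median of 2.21% in Pax3/Pax7 cells and 2.5% in the rest. Among kept barcodes, 54 shared their barcode sequence with a barcode of another library, 2 of them Pax3/Pax7 cells. In libraries 5 to 8, 3 of 2596 kept barcodes passed the same rule and were not used. Pax3/Pax7 cells were set against the rest and against 4 groups of it defined by the genes the rule kept out. These were 352 Pax1/Pax9 cells (sclerotome genes), 255 myogenic-factor cells, 103 cells with Sox2 and Pax3 or Pax7, and 69 Cdh5 cells. Levels are CPM, the share of a group's summed UMIs that a gene holds, scaled to the usual CPM total.

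The label was only partly borne out by the cells. Of the 465 Pax3/Pax7 cells, 344 held at least 1 UMI of Meox1, Meox2, Tcf15 or Dmrt2, 4 transcription factors of the somite, which is 74.0% (69.7 to 77.9%). The share was 78.0, 72.5, 75.5 and 70.2% in libraries 1 to 4. It was 90.1% in Pax1/Pax9 cells, 52.5% in myogenic-factor cells, 15.5% in Sox2 and Pax3/Pax7 cells and 32.4% in the rest. In Cdh5 cells it was 8.70%, and whether those UMIs are background or expression was not tested. With every cell thinned to 3000 UMIs, so that depth was equal, the share was 52.0% (47.3 to 56.6%) in Pax3/Pax7 cells, with 5 cells too shallow. The thinned share was 73.3% in Pax1/Pax9 cells, 33.2% in myogenic-factor cells, 7.77% in Sox2 and Pax3/Pax7 cells, 2.90% in Cdh5 cells and 23.0% in the rest, where 280 cells were too shallow. The order of the groups was the same at both depths.

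The 121 Pax3/Pax7 cells without a somite gene carried many neural transcripts. More than 10 UMIs from 37 genes of neural progenitors, dorsal neural tube and neurons were found in 20 of the 344 cells with a somite gene (5.81%, 3.59 to 8.84%), against 53 of the 121 without one (43.8%, 34.8 to 53.1%). The same share was 62.1% in Sox2 and Pax3/Pax7 cells, 40.4% in myogenic-factor cells, 23.3% in the rest and 2.27% in Pax1/Pax9 cells. The cells without a somite gene were shallower, with a median of 7130 UMIs against 9372.5 in those with one. The count at 3000 UMIs per cell also took in Zic1 and Msx1, both called higher in the cells without a somite gene. By that count, at least 4 neural UMIs remained in 6.71% of cells with a somite gene and in 53.0% of those without. Although Sox2 was at 0 in every cell by the rule, the set holds cells with transcripts of the neural lists and cells with somite transcripts. The whole set is therefore called Pax3/Pax7 cells, and the 344 cells with a somite gene are described separately beside it.

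**Figure D1:**
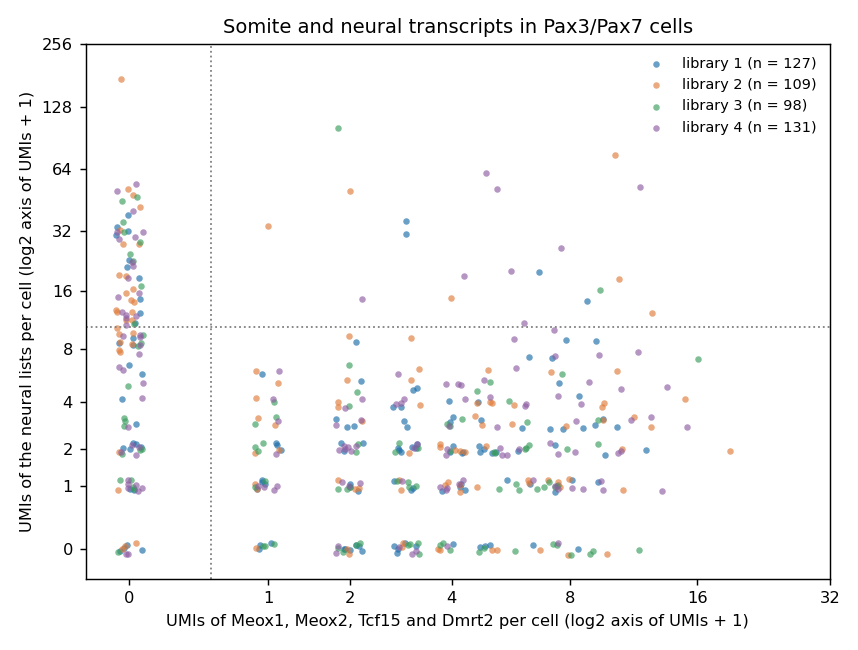
UMIs of Meox1, Meox2, Tcf15 and Dmrt2 (x) and of 37 neural genes (y) in each Pax3/Pax7 cell, both on log2 axes of UMIs + 1 with points jittered and coloured by library. Dotted lines mark 1 somite UMI and 10 neural UMIs; 53 of the 121 cells left of the vertical line and 20 of the 344 right of it lie above the horizontal one.

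The markers of the set, Pax3, Pax7, Meox1, Dmrt2 and Wnt16, come with the label, and the first 2 chose the cells, so their levels are a description. Pax3, a paired-box factor needed for limb muscle, was at 407, 334, 370 and 358 CPM in Pax3/Pax7 cells of libraries 1 to 4. Pax7, its close relative and later a mark of muscle stem cells, was at 40.5, 34.3, 38.97 and 30.9 CPM. Pax3 thus made up most of the summed UMIs, and 342 cells (73.5%, 69.3 to 77.5%) held Pax3 alone, 118 (25.4%) held both and 5 (1.08%) held Pax7 alone. With 5 cells of Pax7 alone, no comparison between the 2 kinds could be made.

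Meox1, a homeobox factor of the somite, was at 268, 265, 297 and 268 CPM in Pax3/Pax7 cells, against 112, 126, 120 and 118 CPM in the rest of libraries 1 to 4. Meox1 was higher than in the rest in each library, but it was higher still, at 440 CPM, in Pax1/Pax9 cells. Meox1 is thus a gene of the somite at large in these data, and the 345 CPM of the 344 cells with a somite gene partly follows from their choice.

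Dmrt2, a DM-domain factor needed for the epithelial order of the mouse dermomyotome, was at 46.2, 36.0, 51.1 and 33.8 CPM in Pax3/Pax7 cells, against 4.503, 4.26, 4.18 and 3.45 CPM in the rest. Levels were 1.23 CPM in Pax1/Pax9 cells, 9.98 CPM in myogenic-factor cells and 4.33 CPM in Sox2 and Pax3/Pax7 cells. Wnt16, a secreted WNT ligand, was at 132, 143, 189 and 136 CPM in Pax3/Pax7 cells, against 17.8, 20.05, 14.1 and 18.7 CPM in the rest. It was at 37.2 CPM in Pax1/Pax9 cells, 26.3 CPM in myogenic-factor cells and 17.3 CPM in Sox2 and Pax3/Pax7 cells. Both genes were higher in Pax3/Pax7 cells than in the rest in each library. A UMI of Wnt16 was found in 42.4% of Pax3/Pax7 cells, 25% of Pax1/Pax9 cells and 11.4% of myogenic-factor cells. It was found in 6.80% of Sox2 and Pax3/Pax7 cells, 0% of Cdh5 cells and 7.20% of the rest. At 3000 UMIs per cell the share was 25.2% in Pax3/Pax7 cells, 8.91% in Pax1/Pax9 cells, 3.73% in myogenic-factor cells and 3.34% in the rest.

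**Figure D2:**
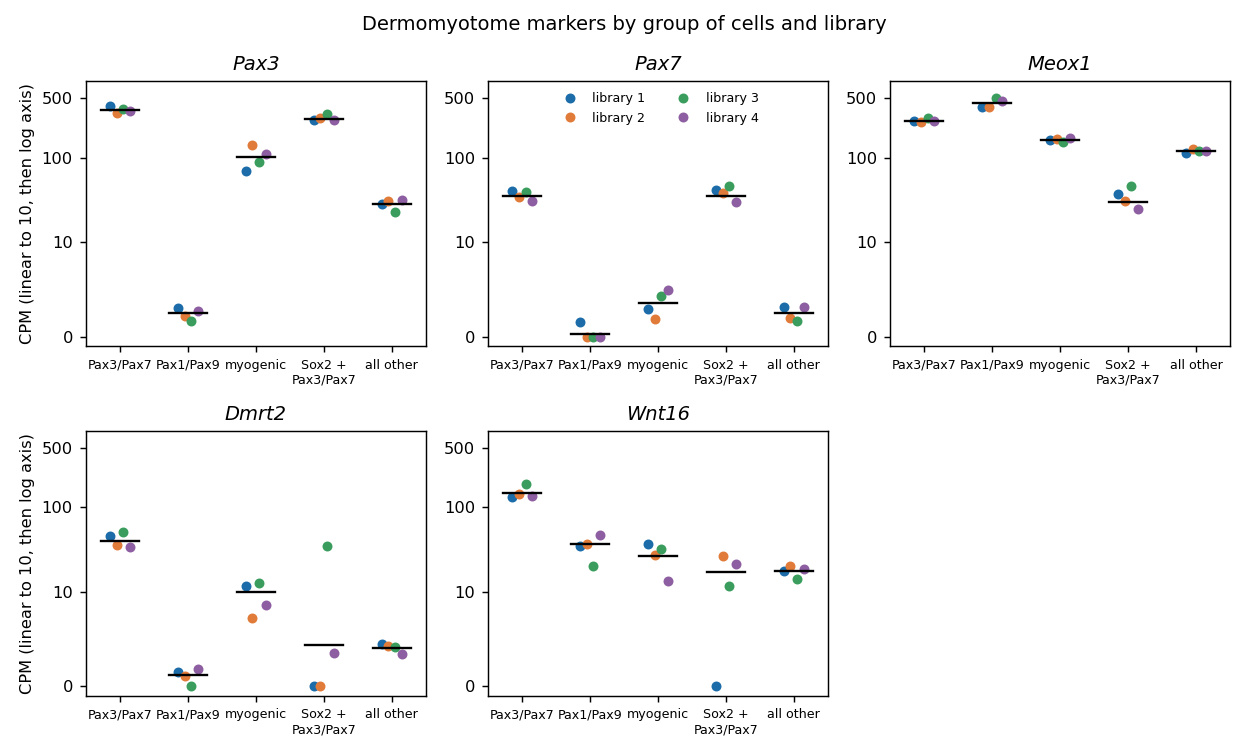
Levels in CPM (linear up to 10, then logarithmic) of the 5 markers in Pax3/Pax7 cells, the 3 groups defined by other genes and the rest (all other kept cells, which include those 3 groups). Points are libraries 1 to 4 and lines the pooled level; Wnt16 lies between 132 and 189 CPM in Pax3/Pax7 cells and between 14.1 and 20.05 CPM in the rest.

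The gene next to Dmrt2 had nearly the same pattern. The non-coding gene 2610016A17Rik was at 59.3, 43.9, 46.3 and 53.1 CPM in Pax3/Pax7 cells, against 5.24, 5.03, 4.55 and 4.80 CPM in the rest. In GENCODE M21 on GRCm38 it lies at chr19:25671134-25672253 on the minus strand, and Dmrt2 at chr19:25672411-25678991 on the plus strand. They run head to head with 158 bases between their annotated starts and do not overlap. Wnt16 lies at chr6:22288227-22298522 on the plus strand, Meox1 at chr11:101877510-101894374, Pax3 at chr1:78101267-78197134 and Pax7 at chr4:139737062-139833528, these 3 on the minus strand. Among the 344 cells with a somite gene, 2610016A17Rik was at 94.6 CPM (78.9 to 112) in the 120 cells with a Dmrt2 UMI, against 41.1 CPM in the 224 without. A UMI of it was found in 68 of those 120 cells and in 66 of those 224.

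The promoters of Dmrt2 and Wnt16 are shown because these genes stood furthest above the rest among the markers the rule did not use, and because the Dmrt2 window holds the start of 2610016A17Rik as well. Each covers 250 bases before and 50 after the RefSeq start on GRCm38.p6, plus strand, at chr19:25672161-25672460 for Dmrt2 and chr6:22287977-22288276 for Wnt16, with CCAAT boxes in capitals. The set of RefSeq promoters used here covered 3 of the 5 markers.
Dmrt2: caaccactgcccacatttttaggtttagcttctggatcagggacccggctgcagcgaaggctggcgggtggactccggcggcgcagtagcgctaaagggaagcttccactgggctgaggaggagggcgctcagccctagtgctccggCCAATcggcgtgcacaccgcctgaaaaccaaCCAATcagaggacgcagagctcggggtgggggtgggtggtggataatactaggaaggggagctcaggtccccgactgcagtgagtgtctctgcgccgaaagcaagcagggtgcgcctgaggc
Wnt16: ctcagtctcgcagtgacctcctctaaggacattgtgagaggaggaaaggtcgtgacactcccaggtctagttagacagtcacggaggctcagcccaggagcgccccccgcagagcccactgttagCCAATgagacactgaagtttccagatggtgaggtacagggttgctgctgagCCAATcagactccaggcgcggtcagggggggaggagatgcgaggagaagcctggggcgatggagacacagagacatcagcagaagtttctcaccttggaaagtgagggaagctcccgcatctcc
GC content is 62.7% in the Dmrt2 window with 18 CpG pairs and 58% in the Wnt16 window with 10, and the median over 32851 promoters is 52.7%. Each window holds 2 CCAAT boxes, which begin 103 and 72 bases before the Dmrt2 start and 125 and 74 bases before the Wnt16 start. The Dmrt2 boxes lie between its start and that of 2610016A17Rik. CCAAT was searched on both strands after the sequences had been seen, and 37.4% of promoters hold it. A paired homeodomain motif (TAAT and ATTA with 3 bases between them, in 0.487% of promoters), a paired-domain core (TCACGC, 6.68%) and a TCF/LEF core (CTTTGA, 16%) had no match on either strand in these windows.

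The Pax threshold was set next to levels of 1 and 2 summed UMIs. Cells that met the other conditions numbered 4278 with 0 summed Pax3 and Pax7 UMIs, 219 with 1, and 149, 115, 116 and 85 with 2, 3, 4 to 5 and at least 6. The share with a somite gene was 30.8, 56.6, 65.1, 77.4, 76.7 and 81.2% in that order. Median UMIs were 6787, 7958, 8148, 8492, 9142.5 and 10753, so depth differed as well, and at 3000 UMIs per cell the share was 21.7, 43.7, 41.4, 56.1, 60.3 and 52.9%. Wnt16 was at 10.4, 150, 151, 164, 144 and 126 CPM, so cells with 1 Pax UMI, just outside the threshold, held as much as those inside. The neuronal tubulin gene Tubb3 was at 292, 413, 220, 134, 62.9 and 177 CPM.

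**Figure D3:**
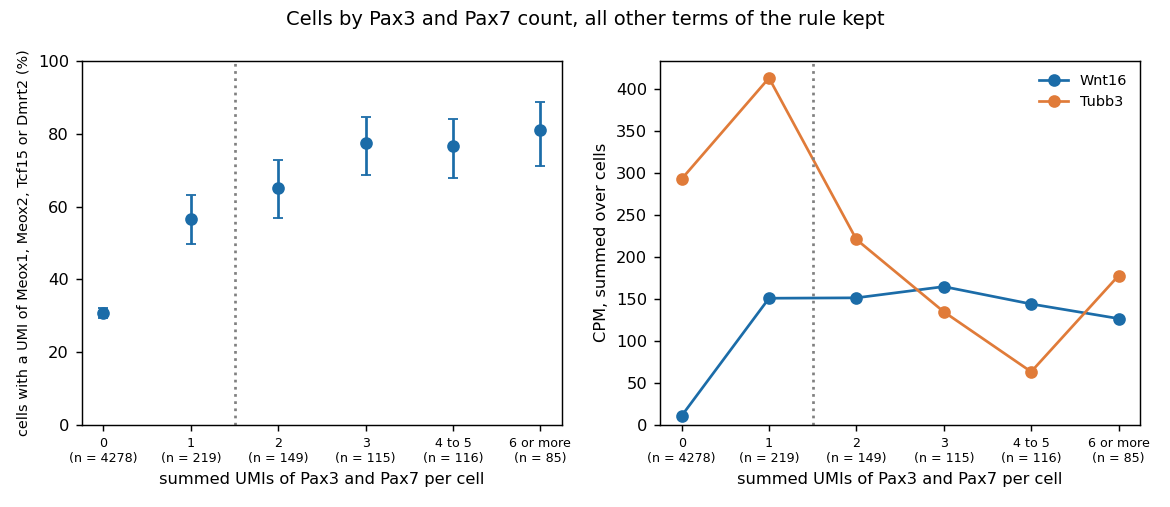
Share of cells with a somite gene at full depth (left, bars are 95% binomial intervals) and CPM of Wnt16 and Tubb3 (right) by summed UMIs of Pax3 and Pax7, among cells that meet the other conditions. The dotted line marks the rule's threshold; the share is 56.6% at 1 UMI and 65.1% at 2.

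Against the rest, the Pax3/Pax7 cells differed in few genes. A gene was called higher or lower past 2-fold, on log2 of (CPM + 10), with at least 50 CPM in the higher group; each library holding 20 or more cells of both groups had to show the same sign. Of 2879 genes tested, 9 were higher (0.313%) and 32 were lower (1.11%). Genes of the rule were left out, and Dmrt2, at 40.6 CPM, was below the level tested. Since the rule chose cells by their transcripts, these counts are descriptions.

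Wnt16 had the highest ratio, at 147 CPM (136 to 158) in Pax3/Pax7 cells and 17.9 CPM (16.7 to 19.1) in the rest, a log2 ratio of 2.49. 2610016A17Rik was at 51.0 CPM (44.5 to 58.1) in Pax3/Pax7 cells and 4.91 CPM in the rest (2.03). Plch1, a phospholipase C gene, was at 52.3 CPM in Pax3/Pax7 cells and 10.0 CPM in the rest (1.64). Npepl1, an aminopeptidase-like gene, was at 82.2 and 24.9 CPM (1.40). Rps6ka3, a ribosomal S6 kinase, was at 73.4 and 28.0 CPM (1.14), and Car14, a membrane carbonic anhydrase, at 123 and 53.1 CPM (1.07). Meox1 (1.13) and Hoxc5, at 70.9 and 26.5 CPM (1.15), were higher as well. Hoxc5 is uncertain, since its annotation overlaps Hoxc6, Hoxc8, Hoxc9 and Hoxc10 on the same strand, and Plch1, Car14 and Meox1 overlap genes on the other strand, and no source used here states the strand used in counting.

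The genes furthest below the rest belonged to blood, contractile muscle and neurons. Embryonic globin Hbb-y was at 1.81 CPM in Pax3/Pax7 cells and 378 CPM in the rest, and the platelet gene Pf4 at 0.227 and 176 CPM. Hbb-bh1 was at 0 UMIs, at most 0.680 CPM, against 158 CPM in the rest. In library 3 the log2 ratio of Hbb-y was -0.11, where the rest held 0.759 CPM of it. The summed blood list was at 8.16 CPM in Pax3/Pax7 cells, with 5 of its 10 genes at 0, and at 787 CPM in the rest, where it lay between 109 and 1213 CPM by library. Actc1 (cardiac actin, early skeletal muscle) was at 21.1 CPM in Pax3/Pax7 cells and 161 CPM in the rest, Mylpf at 12.5 and 113 CPM, and the neuronal gene Stmn2 at 46.4 and 185 CPM. Muscle transcripts take part in the rule through the myogenic factors.

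**Figure D4:**
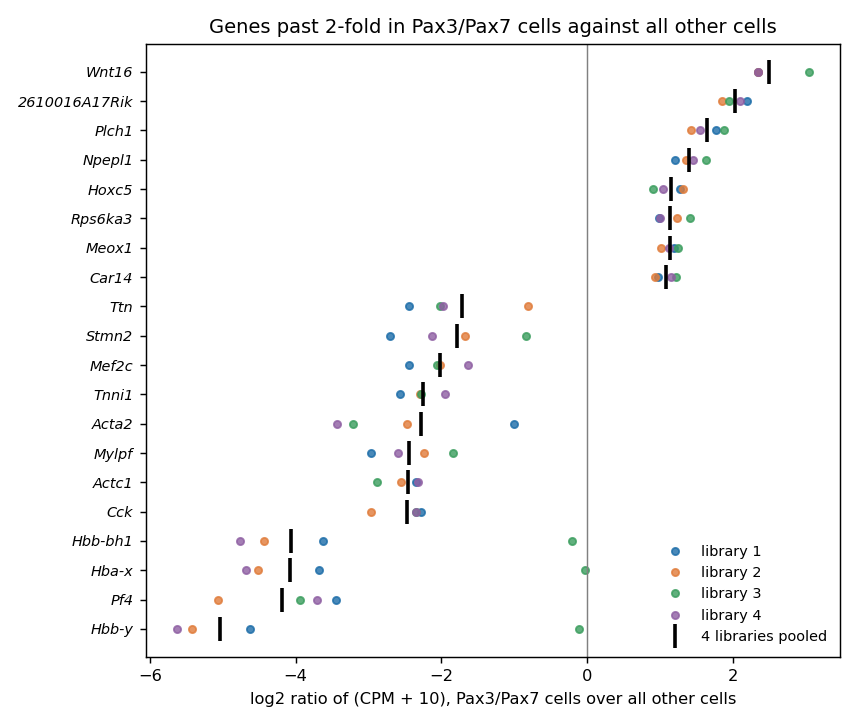
Log2 ratio of Pax3/Pax7 cells over the rest, with 10 CPM added to both levels, for 8 of the 9 genes called higher and the 12 lowest of those called lower. Points are libraries and bars the 4 libraries pooled; Wnt16 has the highest pooled ratio, 2.49, and Hbb-y the lowest, -5.04.

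With the 344 cells with a somite gene in place of all 465, 12 genes were higher (0.417%) and 49 lower (1.7%) than in the rest, together 2.12%, and 38 of the 41 genes called for the whole set were called again. Among the 12 were Meox1 and Dmrt2, which had chosen these cells, so that their calls are built in; Dmrt2 reached the level tested, at 51.3 CPM, through that choice. Nkd2, an antagonist of WNT signalling, entered at a log2 ratio of 1.32 and Igfbp5, an IGF-binding protein, at 1.02. Tubb3, at 59.0 CPM in the 344 cells and 263 CPM in the rest, was called lower at -1.98; in the whole set it was at 150 CPM (-0.77) and was not called.

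Inside the set, cells with a somite gene differed from those without in 29 genes higher (0.978%) and 73 lower (2.46%), together 3.44% of 2965, Meox1 and Dmrt2 having made the split. Lpar1, a lysophosphatidic acid receptor, was at 84.8 CPM in cells with a somite gene and 11.9 CPM in cells without, Igfbp5 at 259 and 61.9 CPM, and Wnt16 at 174 and 43.4 CPM. 2610016A17Rik (1.86), Pcolce, a collagen-processing enhancer (1.95), and the imprinted genes Dlk1 (1.86) and Peg3 (1.61) were higher by these log2 ratios. Lower were Ckb, a creatine kinase of brain, at 69.6 CPM in cells with and 953 CPM in cells without a somite gene, Tfap2b at 2.00 and 113 CPM, and Tubb3 at 59.0 and 496 CPM. Lhx5, a factor of dorsal interneurons, was at 0 UMIs, at most 0.859 CPM, in cells with a somite gene and at 62.9 CPM in cells without. The neuron list summed to 166 CPM (86 to 208 by library) in cells with a somite gene and 1098 CPM (871 to 1284) in cells without, and the dorsal neural tube list to 36.1 and 254 CPM.

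Sclerotome is the ventral partner of the dermomyotome, and 352 Pax1/Pax9 cells stood for it. Of 2955 genes, 32 were higher in Pax3/Pax7 cells (1.08%) and 44 lower (1.49%), together 2.57%. The retinoic acid binding genes Crabp2, at 596 and 103 CPM (2.43), and Crabp1, at 401 and 118 CPM (1.69), were higher, 2 of the 3 tested genes of the retinoid list. The growth factor genes Ptn (433 and 79.8 CPM) and Igf1 (51.7 and 6.76 CPM) were higher as well. In the 344 cells with a somite gene Crabp1 was at 230 CPM, a log2 ratio of 0.91 that is under the 2-fold call, so 1 of the 3 retinoid genes was past 2-fold there. Crabp2 was at 477, Ptn at 409 and Igf1 at 59.0 CPM, while Tubb3 was at 59.0 CPM there and 150 CPM over the whole set, and Gadd45g at 51.8 and 141 CPM. Pax1/Pax9 cells had 35.0 CPM of Tubb3 and 28.9 CPM of Gadd45g.

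Of the list of dermis and connective tissue genes, 4 of 6 tested were lower than in Pax1/Pax9 cells (Col3a1, Twist2, Lum and Pdgfrb), and of the adhesion and basement membrane list 2 of 7. Both tested genes of the sclerotome list, Sox9 and Col2a1, were lower. The sclerotome genes Pax1 and Pax9 had chosen both groups, so these calls are a description. Sox9, the factor that starts cartilage, was at 14.0 CPM in Pax3/Pax7 cells and 183 CPM in Pax1/Pax9 cells, a log2 ratio of -3.003. Pcp4 was at 7.25 and 181 CPM (-3.47), the chemokine gene Cxcl12 at 37.4 and 284 CPM (-2.63) and the collagen gene Col3a1 at 44.9 and 242 CPM (-2.20). In the hedgehog list Ptch1, a receptor and target of the pathway, was lower, at 24.7 and 93.4 CPM, and Gas1, a co-receptor, higher, at 50.7 and 15.97 CPM. Of the somite factors, Foxc1 (8.38 and 51.6 CPM) and Meox2 (31.5 and 109 CPM) were lower. Using the cells with a somite gene alone, 68 genes were called and 63 were among the 76 of the whole set.

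Set against the 255 cells with myogenic factors, the genes that commit cells to muscle, Pax3/Pax7 cells were higher in 20 genes (0.67%) and lower in 170 (5.7%), together 6.37% of 2983. All 11 tested genes of the muscle structural list were lower, at a median log2 ratio of -5.39 against 0.08 over all genes tested; myogenic factors chose both groups. Mylpf was at 12.5 CPM in Pax3/Pax7 cells and 1920 CPM in myogenic-factor cells, and Actc1 at 21.1 and 2473 CPM. The cell cycle inhibitors Cdkn1a, at 24.0 and 1343 CPM, and Cdkn1c, at 134 and 1898 CPM, were lower as well. Ccnd1, the cyclin D1 gene, was higher at 168 and 64.7 CPM (1.25). Wnt16 had the highest log2 ratio here too (2.11), followed by 2610016A17Rik (1.55). Meox1 was not called, at 273 CPM in Pax3/Pax7 cells and 163 CPM in myogenic-factor cells.

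The 103 cells with Sox2 and Pax3 or Pax7 stood for the dorsal neural tube, and library 3, with 10 of them, was not used for directions. Of 2989 genes, 49 were higher in Pax3/Pax7 cells (1.64%) and 50 lower (1.67%), together 3.31%. Meox1 (2.81) and the imprinted growth genes Igf2 (593 CPM in Pax3/Pax7 cells and 79.7 CPM in Sox2 and Pax3/Pax7 cells), Dlk1 (1017 and 170 CPM) and H19 (2.30) were among the highest ratios. Of 7 neural progenitor genes tested, 5 were lower, with Hes5, a Notch target, at 29.9 and 217 CPM and Pax6 at 11.8 and 101 CPM. The neural progenitor gene Sox2 had chosen both groups, so these calls are a description. Hes5 was at 4.30 CPM in the 344 cells with a somite gene. Hoxb9 was the called gene among 14 tested Hox genes, at 58.9 and 214 CPM.

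Signalling lists showed few calls against the rest, where 1.42% of all 2879 genes tested were called in either direction. With so few genes tested per list, 0 calls do not set a list apart from all genes. Of the WNT list, 3 of 35 genes were at a level to be tested, with Wnt16 higher and Sfrp2, a secreted antagonist, lower at 25.1 CPM in Pax3/Pax7 cells and 64.3 CPM in the rest. Of the Notch, BMP, hedgehog, retinoid and adhesion lists, 3 of 18, 3 of 22, 2 of 10, 3 of 14 and 6 of 23 genes were tested and 0 were called. In the list of ephrin and guidance genes, 2 of 24 were tested and Nrp1 was lower, at 34.0 and 94.98 CPM, and in the list of receptor kinases and ligands 6 of 18 were tested and Cxcl12 was lower, at 37.4 and 86.0 CPM. None of the 19 FGF genes reached the level tested; Fgf8, a ligand, was at 11.1 CPM (8.21 to 14.7) in Pax3/Pax7 cells and 2.95 CPM in the rest. Of 25 Hox genes, 11 were tested and the called one was Hoxc5, with a median log2 ratio of 0.05 against -0.01 over all genes.

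Cell cycle transcripts differed little from the rest. S phase genes summed to 2287 CPM in Pax3/Pax7 cells, against 2350 CPM in Pax1/Pax9 cells, 1472 CPM in myogenic-factor cells, 2717 CPM in Sox2 and Pax3/Pax7 cells and 2172 CPM in the rest. G2/M genes summed to 3135 CPM in Pax3/Pax7 cells and 2998 CPM in the rest, and 1791 CPM in myogenic-factor cells. Of 18 tested genes of each list, 0 were called against the rest, where 1.42% of all genes tested were called. Against myogenic-factor cells, where 6.37% of all genes tested were called, Top2a, a topoisomerase of dividing cells, was higher at 359 and 173 CPM.

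Regional genes of the dermomyotome divided the 344 cells with a somite gene. The 344 cells were split 10 ways by a UMI of a regional factor, a description made after the data had been seen. A cell without a UMI of a sparse gene may still express it. Median UMIs lay between 9339 and 11163.5 in cells with the splitting gene and between 9098.5 and 9383 in cells without.

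Pax7 and Wnt16 went together. The 91 cells with a Pax7 UMI (29, 18, 21 and 23 in libraries 1 to 4) had Wnt16 at 305 CPM, against 125 CPM in the 253 without. In libraries 1 to 4 Wnt16 was at 246, 294, 318 and 364 CPM in cells with Pax7. Between them 4 genes were higher (0.14%) and 16 lower (0.561%), together 0.702% of 2851, with library 2 not used for directions. Nkd2 was at 115 CPM in cells with Pax7 and 36.9 CPM in cells without, Pgm5 at 53.1 and 15.3 CPM and C1qtnf3 at 88.1 and 30.6 CPM. The helix-loop-helix inhibitor Id2, at 132 and 364 CPM, was lower, as were the guidance genes Epha3 (-1.76) and Nrp2 (-1.34). Neuronal genes were lower too, with Tubb3 at 21.2 CPM in cells with Pax7 and 72.9 CPM in cells without (-1.41), Nefl (-1.56) and Nefm (-1.48). So were the immediate-early genes Egr1, at 36.1 and 112 CPM, and Btg2, at 18.0 and 53.3 CPM. Their part in the split was not tested.

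En1, a factor of the central dermomyotome, was high with Pax7 and Wnt16. The 45 cells with an En1 UMI had Wnt16 at 370 CPM, against 143 CPM in the other cells with a somite gene and Pax7 at 81.9 and 24.9 CPM. Eya1, a transcriptional co-activator, was at 0 UMIs in cells with En1 and at 39.1 CPM in the others, at least 6.21-fold lower. The 182 cells with a Wnt16 UMI had En1 at 29.0 CPM against 3.75 CPM in those without, Dmrt2 at 69.7 and 29.4 CPM, Nkd2 at 89.2 and 20.6 CPM and Eya1 at 11.6 and 60.1 CPM. Zic1, a factor of the dorsal somite and dorsal neural tube, was at 34.3 CPM in cells with Wnt16 and 11.9 CPM in cells without. Zic1 was called lower in Pax3/Pax7 cells than in Pax1/Pax9 cells (-1.13) and than in Sox2 and Pax3/Pax7 cells. It was also called lower in cells with a somite gene than in cells without.

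Lbx1, a factor of migrating limb muscle precursors, was found apart from Wnt16 and Pax7 among the cells with a somite gene. It was at 15.1, 12.3, 13.4 and 19.4 CPM in Pax3/Pax7 cells of libraries 1 to 4, pooled 15.4 CPM (11.96 to 19.5), and at 0.495 CPM in the rest. Those levels cover the whole set. Cells without a somite gene held Lbx1 UMIs as well, so the levels are not those of limb muscle precursors alone. The 25 cells with an Lbx1 UMI and a somite gene (7, 4, 4 and 10 by library) had 0 UMIs of Wnt16, against 191 CPM in the 319 others, at least 19.7-fold lower, and 0 of Pax7, at least 3.71-fold lower. Met, the receptor for the signal that releases these precursors, was at 54.8 CPM (31.9 to 87.7) in cells with Lbx1 and 8.49 CPM in the others, and 13 of the 25 held a Met UMI against 24 of the 319. Eya1 was at 106 and 26.7 CPM, and Hoxc10 at 139 and 46.2 CPM. Igfbp5 was lower, at 19.3 and 283 CPM, as was Meox1, at 174 and 361 CPM, and the mesenchyme gene Prrx1, at 12.9 and 88.3 CPM. Cxcr4, a chemokine receptor of migrating precursors, was at 0.227 CPM over all Pax3/Pax7 cells.

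Other regional factors gave smaller groups. The 63 cells with Tbx3 had Eya1 at 65.4 CPM against 25.8 CPM in cells without, Zic1 at 1.42 and 29.8 CPM and Wnt16 at 72.5 and 199 CPM, while the 40 cells with Zic1 had Tbx3 at 1.99 and 29.8 CPM and Nkd2 at 101 and 50.5 CPM. Uncx, a factor of the posterior part of each somite, was at 49.9, 45.7, 29.2 and 14.4 CPM in Pax3/Pax7 cells of libraries 1 to 4, against 25.4, 19.7, 12.8 and 9.66 CPM in the rest, so its level differed between libraries in both.

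**Figure D5:**
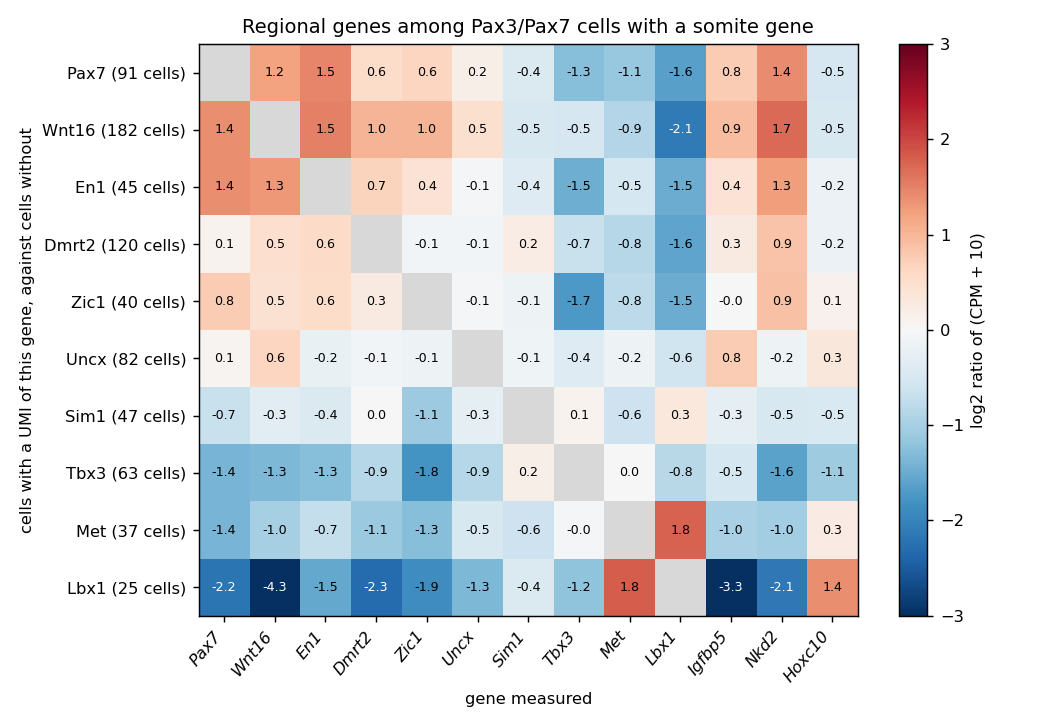
Log2 ratio (10 CPM added) of each gene on the x axis between cells with and without a UMI of the gene on the y axis, among Pax3/Pax7 cells with a somite gene; grey squares mark the splitting gene itself. Ratios of genes with 0 UMIs depend on the 10 CPM added and are no bound; Wnt16, Pax7, En1 and Nkd2 are high together, and Met is high with Lbx1 (1.81).

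Variation between Pax3/Pax7 cells, as the variance over that of Poisson counts at each cell's depth, was highest for Tmsb4x (43.5), an actin-binding gene, Crabp1 (40.8) and the neuronal genes Nefm (24.8), Tubb3 (23.8) and Stmn2 (19.95), with a median of 1.05 over 8522 genes. Within the 344 cells with a somite gene Crabp1 (27.3), Tmsb4x (25.1) and Tubb3 (17.5) led, with a median of 1.04 over 8584 genes. Crabp1 and Tubb3 thus also varied among cells with a somite gene. Tubb3 was at 94.2, 212, 153 and 141 CPM in Pax3/Pax7 cells of libraries 1 to 4.

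Transcripts of the endothelium, muscle structural, epithelium and nephric lists were at low levels in Pax3/Pax7 cells. The endothelium list summed to 51.7 CPM, against 183 CPM in the rest, and the muscle structural list to 110 and 577 CPM. Epithelium genes summed to 5.89 CPM and nephric genes to 20.2 CPM in Pax3/Pax7 cells. Neuron genes, at 360 CPM (252 to 473 by library), and neural progenitor genes, at 327 CPM, stood above these. The stress list summed to 679 CPM in Pax3/Pax7 cells and 781 CPM in the rest. In the 344 cells with a somite gene the neuron list was at 166 CPM. Its part in the results on the whole set was not tested beyond the values given for those 344 cells.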

How the data were processed

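Droplet RNA (10x Genomics version 2 chemistry) was counted in E10.5 mouse AGM cells. The authors deposited unnormalised UMI counts in 1 matrix (27998 genes, 9492 barcodes). Cell Ranger and mm10 were used, per the submitters' processing notes; the Cell Ranger version and strand setting are not given in the sources used here. The deposited gene and barcode names have no unit. Per the labels' protocols embryos were pooled, each population ran on 2 lanes and the doublet rate was held below 5%. No doublet caller was run.

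Kept barcodes of libraries 1 to 4 had 1000 UMIs and 500 genes or more and no more than 10% mitochondrial UMIs, and groups were set by UMIs of the rule genes. Counts were summed per group and expressed as CPM, compared as log2((CPM + 10) / (CPM + 10)), with genes at 50 CPM or more in either group tested. Intervals are exact Poisson for counts and exact Clopper-Pearson for shares, at 95%, and a count of 0 was set at 3 counts for bounds. With 1 pooled sample no p-values or standard errors were made. Named genes were all markers and rule genes, up to 6 of each biology list, the 12 highest and 12 lowest per comparison, the 15 most variable genes and up to 3 genes of each other-class list; the text prints part of these and adds genes of the regional splits, and 1 gene is not reported here. Members and the 34 gene lists were chosen with earlier results of these data known. Gene positions came from GENCODE M21 and promoters from RefSeq. The calling script was tested on simulated data. Alternatives were a stricter Pax threshold, thinning to 3000 UMIs, no filter on low levels, each library left out, the cells with a somite gene alone, equal weights per library, a pseudocount of 1, median ratio scaling, a stricter cell filter, leaving out likely doublets (the top 5% of UMIs, or 2 or more UMIs of blood, endothelial, nephric or muscle structural genes) and, added after the data had been seen, leaving out the top 5% of UMIs alone (Python 3.11.15, numpy 2.4.6, scipy 1.17.1, pandas 2.3.3, matplotlib 3.10.9).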

Additional observations from a re-analysis of the deposited data

Results flagged for a closer look

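Meox1 in Pax3/Pax7 cells was at 297 CPM in library 3 against 268, 265 and 268 CPM in libraries 1, 2 and 4, a library that stood apart from the other 3. Of 15 values checked this was the only one, and chance alone would set apart about 1 in 20. The check used the gaps between the library values and took no account of their counting error, so a library effect is not shown.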

How the results depend on the processing

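The share of Pax3/Pax7 cells was 4.66% with at least 3 Pax UMIs and 3.17% when cells were thinned to 3000 UMIs before the rule was applied (206 of 6502), and lay between 6.59 and 7.06% with each library left out. The share with a somite gene was 78.2% and 46.1% in the same alternatives and 72.5 to 75.4% with each library left out. Without the filter on low levels, the genes called numbered 118 against the rest, 180 against Pax1/Pax9 cells, 390 against myogenic-factor cells and 292 against Sox2 and Pax3/Pax7 cells. With thinning they numbered 134 against Pax1/Pax9 cells and 370 against myogenic-factor cells. With each library left out they numbered 34 to 42, 71 to 79, 185 to 211 and 96 to 118. The cause of these changes was not tested. Of the other values for single genes, 64 were called, or left uncalled, as in the main setting. Another 5 passed the threshold under an alternative and 1, Meox1 against the rest, fell under it at 0.88 with thinning. None turned its direction. Tubb3 and Dmrt2 against the rest were uncalled in the main setting and are among the 64 with thinning. Their values moved all the same, Tubb3 to -0.04 with thinning (-0.77 without) and Dmrt2 to 0.94 (1.85 without). No paired analysis was possible because the matrix is 1 pooled sample with no replicate numbers. The comparison of Pax3-only with Pax7-only cells, myogenic-factor cells without likely doublets, and Sox2 and Pax3/Pax7 cells after thinning were not run, with too few cells per library. Without likely doublets 302 Pax3/Pax7 cells were left and 41 genes were called against the rest, 25 of them among the 41 genes of the whole set; blood and muscle genes take part in that choice. Calls are limited to genes at 50 CPM or more.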
